A study of Mus musculus with 4 samples.

Results

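Parvalbumin interneurons were described from the deposited column GABAergic_Pvalb (Pvalb below), which gives the fraction of each tissue spot that the authors assigned to this cell type in 4 sagittal mouse brain sections. A spot was counted as holding Pvalb when that fraction was above 0, which was the case in 1346 of 14809 spots (9.09%). Each section came from 1 of 4 groups of wild type C57 mice. The ketamine-treated susceptible mouse went through chronic social defeat stress, was classed as susceptible by a social interaction test and received ketamine intraperitoneally at 10 mg/kg. Brains were collected 7 days after ketamine. The susceptible and resilient mice went through the same stress and received saline, and the control mouse received saline. The labels do not say whether the control mouse met any part of the stress procedure. Frozen brain was sectioned onto slides whose spots carry spatial barcodes, and a spot is a small region that can hold several cells of different types. With 1 section per group there is no replicate of any condition, so differences between sections carry no p-value, and neither age nor sex was given in the sources used here.

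Parvalbumin interneurons are fast-spiking inhibitory neurons that release GABA onto the cell bodies and the first axon stretch of excitatory neurons. In the cortex they time the output of pyramidal cells, receive strong input from them and are commonly wrapped in extracellular nets. Many of their axons carry short stretches of myelin, which oligodendrocytes make. The label was not checked against its defining genes (Pvalb, Gad1, Gad2, Slc32a1, Kcnc1 and Kcnc2), because gene values were not analysed here. Every statement on Pvalb below is therefore about the authors' estimated share. In a spot, fewer parvalbumin cells and less RNA per cell cannot be told apart.

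The ketamine-treated section had 3477 spots, the susceptible section 3443, the resilient section 4156 and the control section 3733. Between 2.31% and 4.27% of a section's spots had no assigned type. Spots of different sections can carry the same barcode, since such slides share a barcode set, and between 2735 and 3304 barcodes were shared by any 2 sections. If a barcode marks the same place on each slide, the sections fell into 2 pairs by how the tissue lay. Of the 3304 barcodes shared by the ketamine-treated and susceptible sections, 53.2% had the same cluster number in both. For the resilient and control sections that share was 25.8% of 3199 barcodes. The other 4 pairs of sections had the same cluster number at 1.10% to 2.56% of their shared barcodes. The Pvalb spots can be followed in the same way. Of the 226 ketamine-treated Pvalb spots whose barcode was also in the susceptible section, 24.3% held Pvalb there, against 8.38% of all barcodes those sections shared. Of 198 such ketamine-treated spots whose barcode was in the resilient section, 3.54% held Pvalb there, against 8.85% of all barcodes shared. Of the 358 resilient Pvalb spots whose barcode was in the control section, 16.2% held Pvalb there, against 11.8% of all barcodes shared. The part that placement or plane of section has in the differences below was not tested.

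Pvalb was a minority component of mixed spots rather than a type that fills a spot. In Pvalb spots its share had a median of 31.9% in the ketamine-treated section, 33.0% in the susceptible, 29.9% in the resilient and 32.0% in the control section. The lower and upper quartiles of the share were 25% and 41.3% in the ketamine-treated section, 26.4% and 43.2% in the susceptible, 23.4% and 38.6% in the resilient and 24.9% and 41.3% in the control section. The lowest share just inside the threshold was 14.2%, 16.3%, 12.2% and 14.8% in the ketamine-treated, susceptible, resilient and control sections, and the spots just outside it all stood at 0. With no share between 0 and these values, a spot listed at 0 can still contain parvalbumin cells.

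Spots made of Pvalb alone were rare. They numbered 5 of 232 ketamine-treated, 7 of 277 susceptible, 10 of 430 resilient and 10 of 407 control Pvalb spots. The highest share in a mixed spot lay between 67.2% in the resilient and 79.0% in the control section. Pvalb was the highest share in 37.9% of the ketamine-treated section's Pvalb spots (95% exact Clopper-Pearson interval 31.7 to 44.5), 36.8% of the susceptible (31.1 to 42.8), 34.9% of the resilient (30.4 to 39.6) and 31.2% of the control (26.7 to 36.0). These intervals overlap. Like all intervals here they cover counting error only, and neighbouring spots are not independent.

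The Pvalb share of a spot lay near an even split among the types kept in it. In spots with 3 types, the commonest kind, its median was 32.8% in the ketamine-treated, 32.9% in the susceptible, 32.3% in the resilient and 31.5% in the control section, where an even split would give 33.3%. Among mixed Pvalb spots, 109 of 227 ketamine-treated (48.0%), 123 of 270 susceptible (45.6%), 197 of 420 resilient (46.9%) and 154 of 397 control spots (38.8%) were above the even split for their number of types. The control section was the lowest of the 4 by this count. Besides Pvalb, the Pvalb spots held 2.18 other types on average in the ketamine-treated, 2.00 in the susceptible, 2.36 in the resilient and 2.05 in the control section. The other typed spots held 2.14, 2.07, 2.25 and 2.21 types in the same order of sections. The difference averaged -0.020 ± 0.117 types (SD, n = 4 sections), with 2 of 4 sections higher. An exact two-sided sign-flip permutation test gave p = 0.75. Pvalb itself was left out of the count in Pvalb spots, while every type was counted in the other spots. The test therefore cannot say whether Pvalb spots were more mixed. Spots with 1 type were 2.16%, 2.53%, 2.33% and 2.46% of Pvalb spots in the same order of sections. They were 26.8%, 29.1%, 23.1% and 23.8% of the other typed spots.

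**Figure D1:**
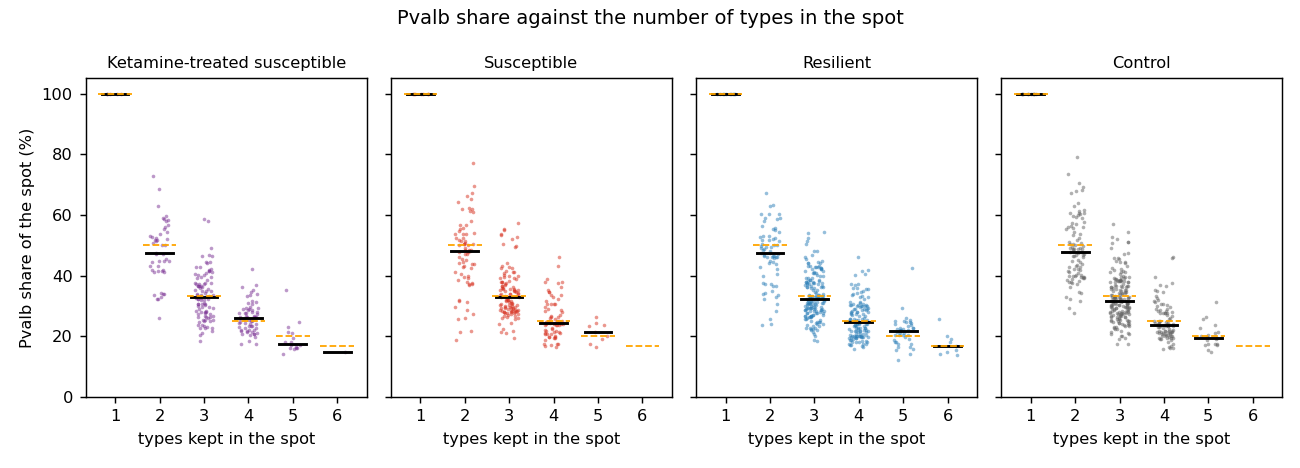
Pvalb share of each Pvalb spot (percent, y axis) against the number of types kept in that spot (x axis), 1 panel per section, 1 point per spot with sideways jitter. Black bars are medians and dashed orange bars an even split; with 3 types the medians lie between 31.5% and 32.9%, beside an even split of 33.3%.

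Pvalb was a leading interneuron type of every section. Among the 11 GABAergic types it ranked by mean share second in the ketamine-treated, first in the susceptible, second in the resilient and first in the control section, and Sst_Chodl, a somatostatin interneuron type known for long-range projections, was first in the other two. Pvalb made up 25.4% of the summed GABAergic share in the ketamine-treated, 29.9% in the susceptible, 29.99% in the resilient and 46.6% in the control section. As a percent of the summed neuronal share it was 4.19%, 5.33%, 6.29% and 8.09% in the ketamine-treated, susceptible, resilient and control sections. On both of these scales the order of the 4 sections was the same as for the mean share over all spots, which was 2.32%, 2.96%, 3.43% and 3.88%.

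The clusters that held Pvalb differed between the sections. The authors numbered the spots' clusters from 1 to 17, and 6 of these (1, 2, 3, 9, 11 and 17) held 95.7% of the summed Pvalb share in the ketamine-treated, 96.0% in the susceptible, 98.3% in the resilient and 94.3% in the control section. Clusters 1 and 2 alone held 70.7%, 79.4%, 74.4% and 67.1% of the Pvalb spots of those sections. Cluster 2 was led by excitatory types of deep cortical layers, L5_PT_RSP_ACA, L6_CT_CTX and L5_IT_CTX. Cluster 1 was led by oligodendrocytes (Oligo), astrocytes (Astro) and L2_IT_RSPv, which is labelled an upper-layer retrosplenial type. Nearly all excitatory labels name cortical or hippocampal types, and whether they fit neurons of other regions was not tested. Clusters 2, 6 and 9, where most leading types were of cortical layers, held 53.7% of the summed Pvalb share in the ketamine-treated section. They held 53.3% in the susceptible, 18.2% in the resilient and 19.2% in the control section. No spot of clusters 8, 12, 13 and 14 held Pvalb in any section, 0 of 1489 spots. Pooled over these clusters and the sections, this allows a share of up to 0.201%, taken as 3 divided by the number of spots. By cluster the same bound was 0.439% for cluster 8, 0.977% for cluster 12, 1.15% for cluster 13 and 1.26% for cluster 14.

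Cluster 1 held Pvalb most often in the resilient section. The spots holding it were 77 of 501 in the ketamine-treated (15.4%, 12.3 to 18.8), 85 of 605 in the susceptible (14.0%, 11.4 to 17.1), 260 of 885 in the resilient (29.4%, 26.4 to 32.5) and 198 of 929 in the control section (21.3%, 18.7 to 24.1). The resilient interval lies above all others, and the ketamine-treated and susceptible intervals overlap each other. The ketamine-treated and control intervals meet only at their ends.

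Cluster 2 had a different order. Pvalb was in 87 of its 663 spots in the ketamine-treated section (13.1%, 10.6 to 15.9), 135 of 761 in the susceptible (17.7%, 15.1 to 20.6), 60 of 766 in the resilient (7.83%, 6.03 to 9.97) and 75 of 716 in the control section (10.5%, 8.33 to 13.0). Here the susceptible section was the highest and the resilient the lowest, and the susceptible interval does not meet the resilient or control interval. As a result, cluster 1 held 33.2% of the ketamine-treated, 30.7% of the susceptible, 60.5% of the resilient and 48.6% of the control section's Pvalb spots, and cluster 2 held 37.5%, 48.7%, 14.0% and 18.4%.

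The smaller clusters had orders of their own. Cluster 9, where L5_PT_RSP_ACA and Astro were among the leading types in 3 of the sections, held Pvalb in 37 of 269 ketamine-treated (13.8%, 9.87 to 18.5), 9 of 73 susceptible (12.3%, 5.80 to 22.1), 14 of 200 resilient (7.00%, 3.88 to 11.5) and 6 of 103 control spots (5.83%, 2.17 to 12.2), and these intervals all overlap. Cluster 11, with astrocytes and oligodendrocytes among its leading types, held it in 12 of 169 ketamine-treated (7.10%, 3.72 to 12.1), 6 of 72 susceptible (8.33%, 3.12 to 17.3), 56 of 237 resilient (23.6%, 18.4 to 29.6) and 18 of 103 control spots (17.5%, 10.7 to 26.2). In cluster 3, led by astrocytes with L4_5_IT_TPE_ENT and oligodendrocytes, the control section stood highest: 9 of 210 ketamine-treated (4.29%, 1.98 to 7.98), 23 of 278 susceptible (8.27%, 5.32 to 12.2), 31 of 375 resilient (8.27%, 5.69 to 11.5) and 53 of 330 control spots (16.1%, 12.3 to 20.5) held Pvalb.

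**Figure D2:**
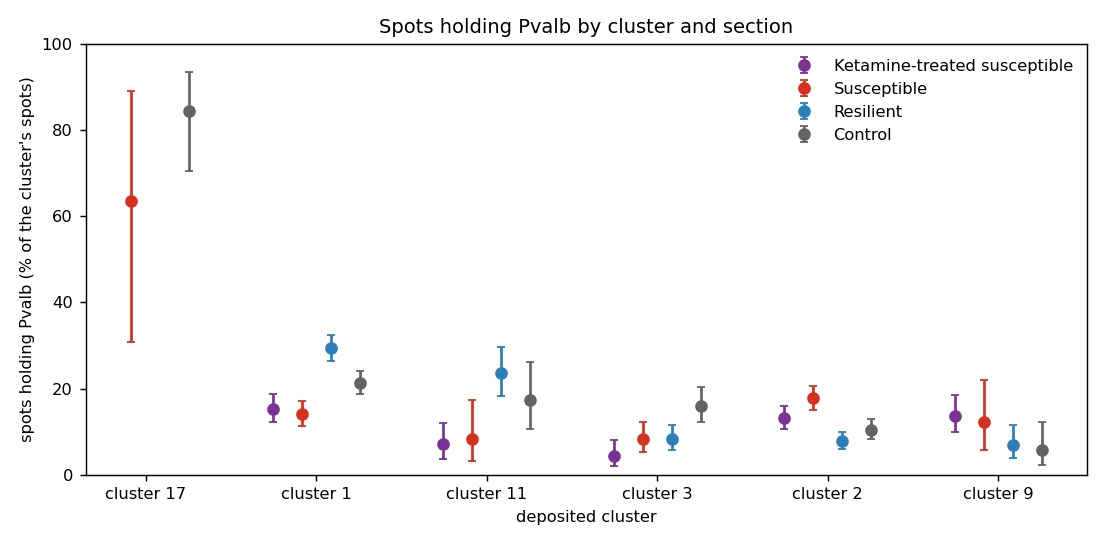
Percent of a cluster's spots that hold Pvalb (y axis) in the 6 clusters with most of the Pvalb share (x axis), for each section with at least 10 spots there; bars are exact 95% intervals. Cluster 1 is highest in the resilient section (29.4%), cluster 2 in the susceptible (17.7%), and cluster 17 stands at 84.4% in the control section.

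Cluster 17 was the only cluster in which Pvalb was the leading type. It had no spot in the ketamine-treated section, 11 in the susceptible, 2 in the resilient and 45 in the control section. Pvalb was in 7 of the 11 susceptible spots, both resilient spots and 38 of the 45 control spots (84.4%, 70.5 to 93.5), and led 29 of those 38. Its mean share over the control spots of the cluster was 40.9%, beside 32.8% for oligodendrocytes. Oligodendrocytes were in 34 of the 45 control spots, 27 of them together with Pvalb, and all 7 control spots without Pvalb held oligodendrocytes. An excitatory type was in 14 of the 45. The spots of this cluster are 1.21% of the control section and 12.7% of its summed Pvalb share, and without them the control mean share was 3.43%, against 3.88% with them.

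**Figure D3:**
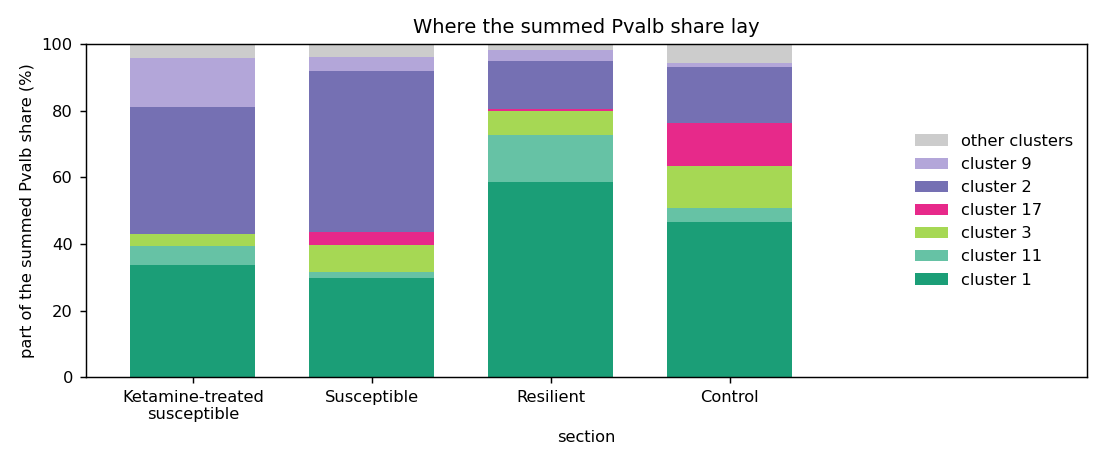
Part of each section's summed Pvalb share (percent, y axis, stacked to 100) that lies in each of the 6 named clusters or in all others, by section. Cluster 2 takes 38.2% and 48.3% in the ketamine-treated and susceptible sections, against 14.3% and 17.02% in the resilient and control sections, where cluster 1 takes 58.6% and 46.5%.

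The susceptible and control sections were compared for the difference after stress in a susceptible mouse; the 6 comparisons share sections, so their values are not independent. The spots holding Pvalb were fewer in the susceptible section, at 0.738 times the control share of spots (95% interval 0.638 to 0.853, counting error only). In mean share the ratio was 0.761, which misses the 1.5-fold mark used here to call a type lower; of the 21 types averaging 1% or more in one of these sections or both, 9.52% were called lower on that rule. Of the difference of -0.926 points, -0.814 came from the mix of clusters and -0.112 from Pvalb within clusters. Cluster 17, with 11 susceptible and 45 control spots, gave -0.375 of the mix part, where clusters under 20 spots are counted whole. Without cluster 17 the mean share ratio was 0.830. The small sum within clusters hides opposite parts: cluster 1 contributed -0.478 points within clusters, cluster 2 0.623 points and cluster 3 -0.230 points. By spots, the ratio was 0.659 in cluster 1 (0.522 to 0.832) and 1.69 in cluster 2 (1.30 to 2.20).

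By the share of spots holding Pvalb, the resilient section was close to the control section in total and unlike it by cluster. Its share of spots holding Pvalb was 0.949 times that of the control section (0.835 to 1.08), an interval that includes 1, and its mean share 0.884 times, where 13.0% of 23 types were called lower and Pvalb was not. The part within clusters was 0.140 points and the part from the mix of clusters -0.590 points. Cluster 17, with 2 resilient and 45 control spots, gave -0.477 points of the mix part. Without cluster 17 the mean share ratio was 0.996. On other scales the 2 sections were further apart. As a percent of the neuronal share the ratio was 0.778, and Pvalb made up 29.99% of the summed GABAergic share in the resilient section, against 46.6% in the control section. By spots holding Pvalb, the ratio of the resilient to the control section was 1.38 in cluster 1 (1.17 to 1.62), 0.748 in cluster 2 (0.541 to 1.03) and 0.515 in cluster 3 (0.339 to 0.782).

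Set against the resilient section, the susceptible section had fewer Pvalb spots in cluster 1 and more in cluster 2. The spot ratio was 0.478 in cluster 1 (0.383 to 0.597) and 2.26 in cluster 2 (1.70 to 3.02), the widest such pair of the 6 comparisons. Over all clusters it was 0.778 (0.673 to 0.898). The mean share ratio was 0.861, with 17.4% of 23 types called lower in the susceptible section and Pvalb not among them. Within clusters, the -0.864 points from cluster 1 and the 0.768 points from cluster 2 nearly cancelled, leaving -0.165.

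Ketamine treatment of a susceptible mouse was the question of the comparison with the susceptible section. Pvalb was in fewer spots after ketamine, at a ratio of 0.829 (0.701 to 0.981), with a mean share ratio of 0.784; 4.76% of 21 types were called lower there and Pvalb was not. Unlike the susceptible and control comparison, most of the difference of -0.639 points was within clusters (-0.506), of which cluster 2 gave -0.376. The spot ratio was 0.740 in cluster 2 (0.577 to 0.948) and 1.09 in cluster 1 (0.823 to 1.45). These are the sections whose shared barcodes most often had the same cluster, at 53.2%.

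Pvalb was furthest apart between the ketamine-treated and control sections. Its mean share was 1.68-fold lower in the ketamine-treated section, 1 of 3 types called lower among 22 (13.6%), and the ratio of Pvalb spots was 0.612 (0.524 to 0.714). The mix of clusters made up -1.06 of the -1.57 points. Cluster 17, with no ketamine-treated and 45 control spots, gave -0.494 points of the mix part. Without cluster 17 the mean share ratio was 0.675. With the 13 clusters that had at least 20 spots in every section weighted equally, the ratio became 0.814, which is under the 1.5-fold mark. The spot ratio was 0.721 in cluster 1 (0.567 to 0.916), 1.25 in cluster 2 (0.937 to 1.67) and 0.267 in cluster 3 (0.134 to 0.529). Against the resilient section, the ketamine-treated mean share ratio was 0.675 and the spot ratio 0.645 (0.553 to 0.752), with 13.0% of 23 types called lower and Pvalb not among them. The ratio was 0.523 in cluster 1 (0.416 to 0.658) and 1.68 in cluster 2 (1.23 to 2.29).

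The cell types beside Pvalb in the same spot were mostly excitatory. An excitatory (glutamatergic) type was in 85.3% of Pvalb spots in the ketamine-treated (80.1 to 89.6), 85.6% in the susceptible (80.9 to 89.5), 83.7% in the resilient (79.9 to 87.1) and 69.0% in the control section (64.3 to 73.5). In the other typed spots it was 67.7%, 67.7%, 65.5% and 64.0%. The difference averaged 14.7 ± 6.42 points (SD, n = 4 sections), higher in Pvalb spots in 4 of 4 sections. For this and the next 13 comparisons the exact two-sided sign-flip permutation test over sections cannot go below p = 0.13 (rounded), which is the value here; adjusted by Benjamini-Hochberg over the 14 tests it was 0.194. When the other spots were weighted to lie in the same clusters as the Pvalb spots, the difference averaged 11.6 ± 8.21 points, again higher in 4 of 4. Over spots with at least 2 types it averaged 7.51 points and was higher in 3 of 4 sections, with a lowest value of -1.70. In cluster 1, excitatory types were in 72.7%, 77.6%, 82.3% and 69.7% of the ketamine-treated, susceptible, resilient and control Pvalb spots, against 60.9%, 60.9%, 51.6% and 51.1% of the other spots. In cluster 2 nearly every spot held one, at 92.0% to 97.3% of Pvalb spots and 96.9% to 98.6% of others.

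Summed over the sections, the type most often beside Pvalb was a layer 5 type, though not in the control section, where Oligo and Astro were each in more Pvalb spots (45.9%). This label, L5_PT_RSP_ACA, names the layer 5 pyramidal-tract neurons of retrosplenial and anterior cingulate cortex, which project below the cortex. Whether the label fits neurons of other regions was not tested. L5_PT_RSP_ACA was in 659 of the 1346 Pvalb spots (49.0%). It was in 53.9% of Pvalb spots in the ketamine-treated (47.2 to 60.4), 56.3% in the susceptible (50.3 to 62.2), 58.6% in the resilient (53.8 to 63.3) and 31.0% in the control section (26.5 to 35.7). In the other typed spots it was 15.3%, 13.0%, 17.9% and 11.4%. The Pvalb spots were higher in every section, and the control section lay below the other 3 with an interval that does not meet theirs. The difference averaged 35.5 ± 10.9 points (SD, n = 4 sections, exact sign-flip p = 0.13, adjusted 0.194), and 29.5 ± 9.39 points against other spots weighted to the same clusters. The 10 excitatory types tested were chosen from 47 for being in the most Pvalb spots. Choice and test thus use the same spots, and the adjustment does not cover the choice.

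The excess held within clusters 1 and 2. In cluster 1, L5_PT_RSP_ACA was in 37.7% of ketamine-treated, 35.3% of susceptible, 58.1% of resilient and 31.3% of control Pvalb spots, against 8.01%, 6.15%, 10.5% and 4.29% of the other spots. In cluster 2, where the type leads, the Pvalb spots stood at 73.6%, 77.0%, 76.7% and 60.0% in those sections and the other spots at 48.0%, 43.1%, 54.2% and 40.1%. In each of these 8 pairs the interval of the Pvalb spots lies above that of the other spots. In clusters 3, 9 and 11 the Pvalb spots were also higher in every section, but some intervals overlap. In cluster 3 of the control section, for example, it was 9.43% (3.13 to 20.7) against 2.89% (1.25 to 5.61). In cluster 17 the Pvalb spots were lower in the susceptible section, at 28.6% of 7 against 33.3% of 3. They were higher in the control section, at 21.1% of 38 against 14.3% of 7. A spot with Pvalb and L5_PT_RSP_ACA and nothing else was the commonest combination summed over the sections, with 16 ketamine-treated, 32 susceptible, 27 resilient and 13 control spots, 88 in all. In the control section other combinations were commoner, with 39 spots of Pvalb, Astro and Oligo and 30 of Pvalb and Astro.

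Layer 6 types were at the other end. Types of layers 6 and 6b together were in 5.60% of Pvalb spots in the ketamine-treated, 3.97% in the susceptible, 3.26% in the resilient and 2.46% in the control section. In the other typed spots they were at 11.1%, 9.97%, 13.0% and 11.4%, and in other spots weighted to the same clusters at 18.6%, 19.4%, 8.64% and 8.73%. Their main type here, L6_CT_CTX, the corticothalamic neurons, had a mean difference of -3.71 points in Pvalb spots (SD 1.82, n = 4 sections, lower in 4 of 4; exact sign-flip p = 0.13, adjusted 0.194). Against weighted spots the mean difference was -6.39 points (SD 3.07). Layer 5 types together were in 56.9% of ketamine-treated, 60.3% of susceptible, 62.1% of resilient and 36.9% of control Pvalb spots. The other typed spots stood at 21.5%, 19.6%, 26.8% and 18.8%. Of the 716 Pvalb spots with a layer 5 type, 659 held L5_PT_RSP_ACA. Summed over the sections, L5_PPP was also higher in Pvalb spots (2.82% against 0.741%). L5_IT_CTX was similar (8.99% against 9.28%) and L5_IT_TPE_ENT lower (0.817% against 3.14%). L5_PT_CTX and L5_6_IT_CTX were in no Pvalb spot and in 0.255% and 0.193% of others.

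The remaining named excitatory types differed less, or in fewer sections once clusters were weighted. L2_IT_RSPv, labelled an upper-layer retrosplenial type, was in 15.5% of ketamine-treated, 13.0% of susceptible, 22.1% of resilient and 22.6% of control Pvalb spots. Its plain difference averaged 6.08 ± 6.34 points, higher in 3 of 4 sections, and its weighted difference -0.51 points (SD 2.53), higher in 2 of 4 sections. L2_IT_RSP_ACA ran the other way between sections, at 25%, 18.8%, 5.12% and 8.60%, and was higher than in weighted other spots in 4 of 4 sections, by 5.25 ± 3.66 points. The L4_5_IT_TPE_ENT type was lower in Pvalb spots in 4 of 4 sections, with a mean difference of -5.09 points (SD 0.426), but lower in only 3 of 4 once spots were weighted by cluster. NP_SUB, near-projecting neurons of the subiculum, and L5_PPP were higher in Pvalb spots in 4 of 4 sections, by 3.01 ± 1.92 and 1.94 ± 1.06 points, and NP_SUB was higher in 2 of 4 after weighting. CR, the Cajal-Retzius type, was lower in 4 of 4, and in 3 of 4 after weighting. L5_IT_CTX was split 2 against 2, and L3_RSP_ACA was higher in 3 of 4. In all, 38 of the 47 excitatory types shared at least 1 spot with Pvalb.

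Oligodendrocytes shared spots with Pvalb at levels that followed the pairs of sections. They were in 22.4% of Pvalb spots in the ketamine-treated (17.2 to 28.3), 22.7% in the susceptible (17.9 to 28.1), 44.0% in the resilient (39.2 to 48.8) and 45.9% in the control section (41.0 to 50.9). The other typed spots held them at 25.2%, 27.2%, 30.5% and 43.6%, so the Pvalb spots were lower in the ketamine-treated and susceptible sections and higher in the resilient and control sections. The plain difference averaged 2.15 ± 8.10 points (SD, n = 4 sections; exact sign-flip p = 0.875). It changed sign once clusters were taken into account: other spots in the same cluster proportions stood at 26.2%, 28.2%, 54.3% and 60.5%, and the Pvalb spots were lower in 4 of 4 sections, with a mean difference of -8.53 points (SD 4.91; exact p = 0.13, adjusted 0.194).

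By cluster the difference was not uniform. In cluster 1, oligodendrocytes were in 37.7% of its ketamine-treated, 41.2% of its susceptible, 59.2% of its resilient and 57.6% of its control Pvalb spots, against 49.5%, 57.7%, 70.7% and 69.5% of its other spots. In the resilient section, 0 of the 60 Pvalb spots of cluster 2 held oligodendrocytes, against 10.4% of the other spots there, while the ketamine-treated and susceptible sections differed little (10.3% against 11.9%, and 8.15% against 8.99%). In cluster 11 the Pvalb spots were higher in 3 sections, at 58.3% of 12 ketamine-treated, 100% of 6 susceptible and 51.8% of 56 resilient Pvalb spots, against 45.0%, 50.8% and 50.8% of the other spots. In cluster 9 they were higher in the ketamine-treated (8.11% against 5.24%) and susceptible sections (22.2% against 4.76%), where 3 and 2 Pvalb spots held oligodendrocytes. OPC, the oligodendrocyte precursors, shared a spot with Pvalb in 1 ketamine-treated, 0 susceptible, 3 resilient and 2 control spots.

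Excitatory types were less often in the Pvalb spots that held oligodendrocytes. Among Pvalb spots with oligodendrocytes, 69.2% of ketamine-treated, 68.3% of susceptible, 79.9% of resilient and 59.4% of control spots also held an excitatory type. Among those without, it was 90.0%, 90.7%, 86.7% and 77.3%. The same order held in the other typed spots, at 46.5% to 51.1% with and 73.1% to 77.6% without oligodendrocytes; the shares of a spot sum to 1. All of Pvalb, oligodendrocytes and an excitatory type were together in 15.5% of ketamine-treated, 15.5% of susceptible, 35.1% of resilient and 27.3% of control Pvalb spots. Pvalb with oligodendrocytes and no excitatory type was commonest in the control section, at 18.7%, against 6.90%, 7.22% and 8.84% in the ketamine-treated, susceptible and resilient sections.

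Astrocytes, which support synapses and clear transmitter, were in 41.4% of ketamine-treated (35.0 to 48.0), 32.5% of susceptible (27.0 to 38.4), 39.1% of resilient (34.4 to 43.9) and 45.9% of control Pvalb spots (41.0 to 50.9). The other typed spots were at 47.6%, 44.6%, 45.4% and 49.7%. The difference averaged -7.09 ± 3.55 points and, against weighted spots, -7.93 ± 4.71 points, lower in 4 of 4 sections both ways (exact sign-flip p = 0.13, adjusted 0.194). Against spots holding another GABAergic type it averaged -3.16 points and was lower in 3 of 4 sections. Clusters differed here too. In cluster 1, astrocytes were in 44.2%, 30.6%, 42.3% and 47.5% of the ketamine-treated, susceptible, resilient and control Pvalb spots, against 60.9%, 55.2%, 58.4% and 64.7% of the other spots. In cluster 2 they were in more of the ketamine-treated Pvalb spots, 41.4% (30.9 to 52.4) against 24.4% of the other spots (21.0 to 28.2), and in 28.9% of the susceptible ones against 24.7%. The cluster 2 Pvalb spots were lower in the resilient (10.0% against 12.5%) and control sections (20.0% against 28.2%).

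Other interneurons were seldom beside Pvalb. Another GABAergic type was in 5.60% of ketamine-treated (3.02 to 9.39), 6.86% of susceptible (4.18 to 10.5), 8.60% of resilient (6.13 to 11.7) and 5.65% of control Pvalb spots (3.62 to 8.36). The other typed spots held a GABAergic type at 15.2%, 16.9%, 16.9% and 11.6%. The difference averaged -8.47 ± 1.83 points, and -5.39 ± 1.88 points after weighting by cluster, lower in 4 of 4 sections (exact sign-flip p = 0.13, adjusted 0.194). The commonest was Ndnf_HPF, in 8, 7, 20 and 14 spots of the ketamine-treated, susceptible, resilient and control sections. Sst_Chodl shared 4, 3, 6 and 1 spots with Pvalb, and Pvalb_Vipr2, the chandelier cells that contact the first axon stretch, shared 1, 3, 1 and 2. In total 8 of the 10 other GABAergic types met Pvalb in some spot.

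**Figure D4:**
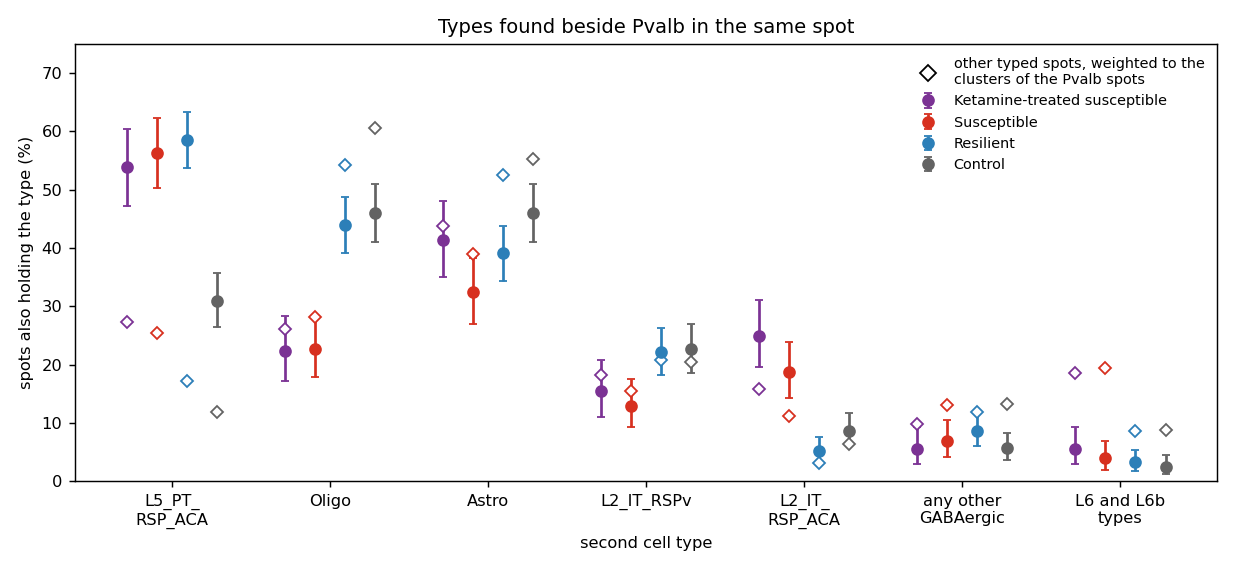
Percent of Pvalb spots that also hold another type (filled points with exact 95% intervals) and of other typed spots weighted to the same clusters (open diamonds), y axis, for 7 types or groups of types (x axis) in the 4 sections. L5_PT_RSP_ACA is higher in Pvalb spots in every section, and oligodendrocytes, astrocytes, other GABAergic types and layer 6 types are lower in every section.

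The type that outranked Pvalb in 2 sections, Sst_Chodl, filled its spots differently. Spots holding Sst_Chodl, 802 in all, were made of that type alone in 18.9% of ketamine-treated, 11.6% of susceptible, 23.6% of resilient and 13.0% of control cases, and Pvalb spots were single in 2.16%, 2.53%, 2.33% and 2.46%. Pvalb spots held 0.774 ± 0.301 more other types than Sst_Chodl spots (SD, n = 4 sections), and an excitatory type more often by 28.8 ± 8.08 points, in 4 of 4 sections each. Pvalb led its spots less often than Sst_Chodl did, with a mean difference of -7.31 points (SD 7.22). For each of these differences the exact two-sided sign-flip permutation test gave p = 0.13, the smallest it allows, and 0.188 adjusted over 6 tests. The shares that decide the leading type also chose the spots, so the difference in leading is a description and its test adds no independent support. Seen from the other side, oligodendrocyte spots held Pvalb in 6.19% of ketamine-treated, 7.13% of susceptible, 14.6% of resilient and 11.9% of control cases. A minority share in mixed spots was not particular to Pvalb. In Pvalb_Vipr2 spots the median share of that type was 28.0%, 32.5%, 27.8% and 31.4% in the same order of sections. Those spots were single in 7.14%, 3.92%, 5.71% and 0% of cases, and were led by Pvalb_Vipr2 in 21.4%, 25.5%, 22.9% and 17.6%.

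The likeness of other types' profiles to that of Pvalb depended on a single unit. Over 61 cluster-by-section units of at least 20 spots, the 5 highest Pearson correlations of mean share with that of Pvalb were 0.22 for Pvalb_Vipr2, 0.21 for L5_PT_RSP_ACA, 0.17 for Oligo, 0.15 for Sst and 0.09 for L6_CT_CTX. They are a description, since units share sections and shares sum to 1 in a spot. Without the control unit of cluster 17, over 60 units, the same 5 types stood at 0.05, 0.44, 0.14, 0.49 and 0.31, and the 5 highest were Sst, L5_PT_RSP_ACA, NP_SUB (0.37), L2_IT_RSPv (0.35) and L6_CT_CTX. By ranks over all 61 units, Spearman's rho was highest for L5_PT_RSP_ACA (0.54) and NP_SUB (0.48).

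On the deposited t-SNE map, which places spots of like measurement near each other, Pvalb spots lay together. Of the 15 nearest spots of the same section, 34.2% held Pvalb around a ketamine-treated, 40.6% around a susceptible, 49.9% around a resilient and 44.4% around a control Pvalb spot. Around other spots it was 4.38%, 5.00%, 5.83% and 6.84%. The ratios were 7.80, 8.12, 8.56 and 6.49 for the ketamine-treated, susceptible, resilient and control sections. Neighbours are given here for Pvalb only, and whether other types group as closely on the map was not tested. No Pvalb spot was among the 15 nearest for 13.4%, 9.39%, 6.05% and 6.88% of the Pvalb spots of these sections, against 72.0%, 70.5%, 68.4% and 61.5% of the others.

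The grouping was also seen inside single clusters. In cluster 1, Pvalb spots had 39.7%, 39.8%, 63.8% and 52.4% Pvalb neighbours in the ketamine-treated, susceptible, resilient and control sections, against 10.6%, 9.24%, 16.2% and 12.8% for the other spots of the cluster. In cluster 2 it was 40.2%, 49.5%, 20.2% and 28.3% for Pvalb spots, against 8.73%, 10.7%, 6.73% and 8.28%. How the map was made was not given in the sources used here, so it may share its input with the clusters and the cell type shares.

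**Figure D5:**
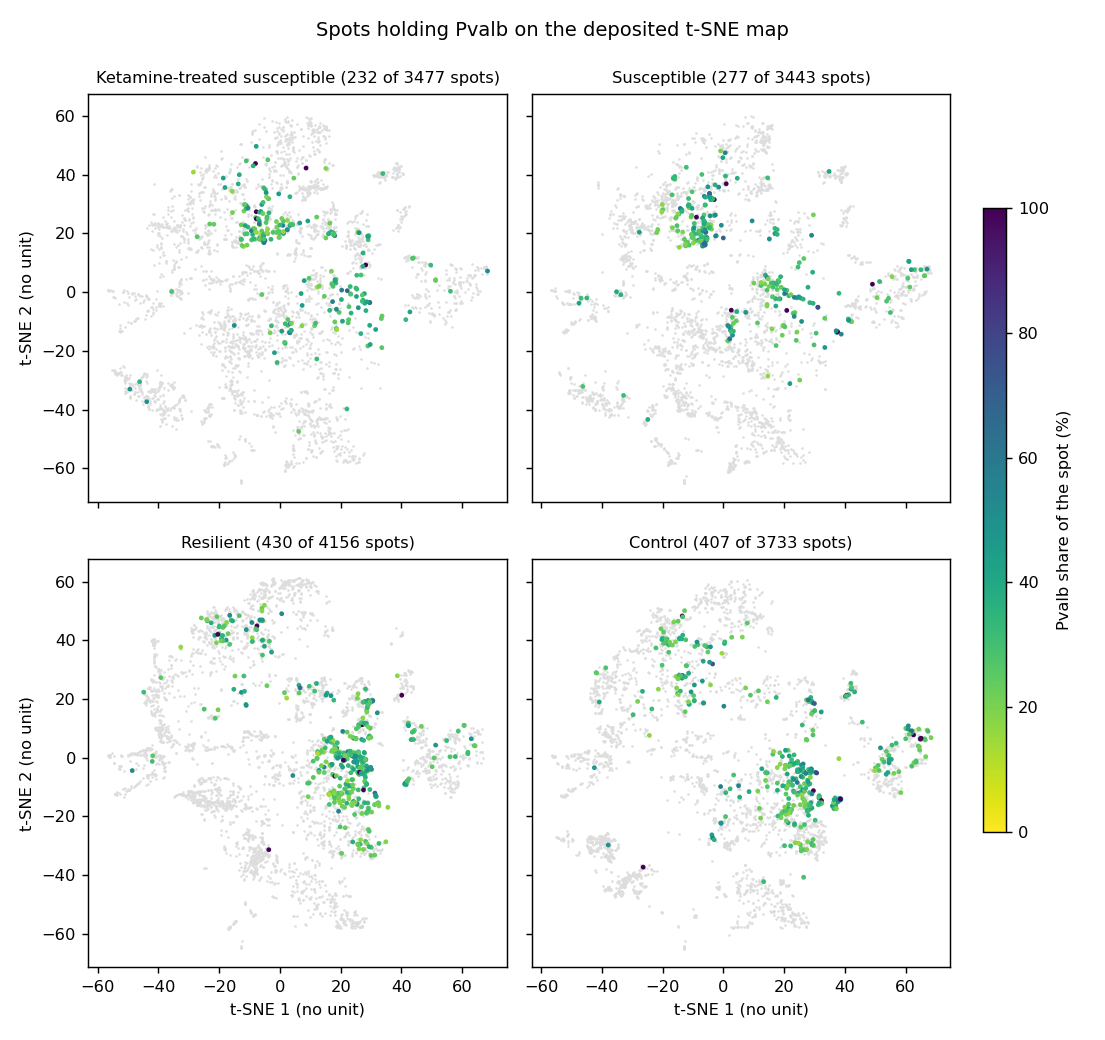
The deposited t-SNE map (both axes without unit), 1 panel per section, with all spots in grey and Pvalb spots coloured by their Pvalb share in percent. In the resilient and control sections most coloured spots form a band at the right of the centre; in the ketamine-treated and susceptible sections they split between that area and one above the centre.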

How the data were processed

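The authors deposited, for each section, a table with 1 spot per line that lists the spot's cluster and the fraction assigned to each of 67 cell types, and 1 table of t-SNE coordinates (a score without unit). The genome build was mm10, as the submitters' processing notes list it. No aligner, clustering method, or method and reference behind the deposited fractions was given in the sources used here. Gene counts were not analysed here, so depth is unknown and precision rests on the numbers of spots. Equal cluster numbers were treated as the same cluster in every section; their leading types were mostly alike, but the sources used here do not say so. The t-SNE table was joined to the sections by barcode.

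Python 3.11.15 with numpy 2.4.6, pandas 2.3.3 and scipy 1.17.1 was used. Intervals are exact Clopper-Pearson 95% intervals for shares of spots, and log-normal (Katz) intervals for ratios. Differences of mean share were split by cluster into a part from cluster proportions and a part within clusters, where clusters under 20 spots in either section count in the first part. Patterns within sections were tested by an exact two-sided sign-flip permutation over 4 sections. The split by cluster, the cluster weighting and the neighbour percent were tried on simulated data built from the control section or from random points. The sign-flip test was run there without a set target. Its behaviour across differing sections was therefore not checked. Spots are not replicates of a condition.

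Types were named by rule: Oligo, OPC and Astro, the 10 excitatory types in most Pvalb spots, GABAergic types by count, the 5 types with the most similar profile, and clusters with at least 5% of a section's summed Pvalb share. Pvalb and these lists were chosen with earlier results of these data known. Alternatives were the denominator, the threshold, cluster 17, cluster weights, the spots compared, leaving out each section, and the number of neighbours. The overlap of barcodes between sections was added after seeing the data.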

Additional observations from a re-analysis of the deposited data

Results flagged for a closer look

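In all 6 comparisons the percent of spots holding Pvalb differed in opposite directions in clusters 1 and 2. This is 1 pattern rather than 6, since the order of the sections in cluster 2 was the reverse of that in cluster 1. With 1 section per group these differences were not tested, and each rests on single sections. The interval of the spot ratio included 1 in cluster 2 for resilient to control (0.541 to 1.03) and ketamine-treated to control (0.937 to 1.67). It also included 1 in cluster 1 for ketamine-treated to susceptible (0.823 to 1.45). Between the susceptible and resilient sections, the difference was -15.3 points in cluster 1 and 9.91 points in cluster 2, a gap of 25.2 points. The gap was 19.3 points between the ketamine-treated and resilient sections (-14.0 in cluster 1, 5.29 in cluster 2). It was 14.5 points between the susceptible and control sections (-7.26 and 7.26), and 8.59 points between the ketamine-treated and control sections (-5.94 and 2.65). It had the other sign between the resilient and control sections, at -10.7 points (8.07 and -2.64), and between the ketamine-treated and susceptible sections, at -5.94 points (1.32 and -4.62). The 2 largest gaps lie between sections whose shared barcodes had the same cluster number in 1.13% and 1.10% of cases. For the gaps of 14.5 and 8.59 points that share was 2.56% and 2.55%. It was 25.8% for the gap of -10.7 points and 53.2% for the gap of -5.94 points. A relation of the gaps to placement was not tested.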

How the results depend on the processing

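Of 147 alternative values, 9 changed direction. Counting only spots led by Pvalb gave 2.53%, 2.96%, 3.61% and 3.40% of spots in the ketamine-treated, susceptible, resilient and control sections, so the resilient section stood above the control one (ratio 1.06); a threshold of 20% of the spot gave 9.10% in the resilient section. As a percent of the neuronal share the means were 4.19, 5.33, 6.29 and 8.09, and as a percent of the GABAergic share 25.4, 29.9, 29.99 and 46.6; the resilient to control ratio on the neuronal scale was 0.778. Without cluster 17 the control mean share was 3.43%. Cluster weights common to all sections gave ratios of 0.978 for susceptible to control and 1.03 for resilient to control. They gave 0.814 for ketamine-treated to control and 0.788 for ketamine-treated to resilient. With clusters of at least 10 spots these ratios were the same, since the same 13 clusters qualified. For spots led by Pvalb the ketamine-treated to control ratio was 0.744. Between the ketamine-treated and susceptible sections the ratio in cluster 9 was 0.763 by mean share and 1.12 by spots, and in cluster 11 1.00 and 0.852. The Oligo difference of 2.15 points became -8.53 with cluster weights, -1.26 over spots with at least 2 types and -1.53 at a threshold of 20%; leaving out each section in turn it ran from -1.63 (without the resilient section) to 4.34. The same leave-one-out ran from -8.21 to -5.42 for Astro, 13.5 to 17.9 for excitatory and -9.31 to -7.95 other GABAergic types. The mean of these 3 kept its sign in the alternatives run, but not its size or every section: excitatory types gave 7.51 over spots with at least 2 types (higher in 3 of 4 sections) and 32.7 against spots holding another GABAergic type, where Astro gave -3.16 (lower in 3 of 4) and Oligo 6.70, and Astro gave -12.0 over spots with at least 2 types. For other GABAergic types, a comparison with spots chosen for holding such a type gives no value and was not run. With 30 nearest spots the t-SNE ratios were 6.54, 6.86, 7.32 and 5.45. Where a value changed, the cause was not tested. No paired analysis was possible because each group has 1 section and the labels carry no replicate number.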
